A study of Homo sapiens with 6 samples.

Results

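The genes described are those of RNA polymerase II, its general initiation factors and the factors that hold the polymerase near a gene's start and release it. They were chosen by name. Of 44 listed genes, 43 had a probe set that carried 1 gene symbol, out of 18244 genes with such a probe set, and where a gene had several, the one with the highest mean log2 value over the 6 arrays was read. They comprise 12 core subunits of the polymerase, 9 general factors, and 22 factors of P-TEFb, pausing and elongation. NELFE is not analysed here, so the NELF complex is read through 3 of its 4 listed genes.

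The cells are P493-6, a human B-cell lymphoma line grown in RPMI medium with FBS, whose c-Myc transgene is switched off by tetracycline. Each of 3 groups was hybridised to 2 Affymetrix arrays of 1 colour. Low-Myc cells had 0 hours of c-Myc expression after release from tetracycline, mid-Myc cells 1 hour and high-Myc cells 24 hours. For the mid-Myc samples the growth field of the labels gives 0 hours and the treatment field gives 1 hour. The treatment field was followed, since the c-Myc level of these cells is described as moderate. All groups carry the transgene, all received ERCC synthetic RNAs in proportion to cell number, and 100 ng of total RNA was labelled per array. The mid-Myc samples are numbered far from the rest, and if they were processed separately, that batch and the group cannot be told apart.

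RNA polymerase II makes messenger RNA and is assembled from a set of subunits, some of which also belong to RNA polymerases I and III. General factors place it at the promoter, and the kinase CDK7 in TFIIH marks the repeated tail of its largest subunit as it starts. DSIF and NELF then hold it a short way into the gene until P-TEFb, the kinase CDK9 with a cyclin T partner, releases it. P-TEFb is kept idle by the 7SK ribonucleoprotein, in which HEXIM1 or HEXIM2 inhibits the kinase and LARP7 holds the 7SK RNA. c-Myc binds DNA with MAX at the E-box CACGTG and is known to recruit P-TEFb to promoters.

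The E-box is shown because it is the sequence c-Myc with MAX binds, and the promoters of the members were searched for it by letters alone. RefSeq windows of GRCh38.p14, running from 250 bases before to 50 bases after a gene's start, were given for 36 members. CACGTG, which reads the same on both strands, occurred in the windows of 5 members (13.9%), against 2396 of 27305 genes with a window (8.77%). The stretches of 60 bases that hold it are given on the gene's own strand, 5′ to 3′, with the E-box in capitals. That of GTF2B is at chr1:88891648-88891707 (minus strand, 113 bases before the start). That of CDK7 is at chr5:69234754-69234813 (plus strand, 105 before one RefSeq start of the gene and 14 before another), and that of CCNT1 at chr12:48716898-48716957 (minus strand, 234 before). That of AFF4 is at chr5:132963656-132963715 (minus strand, 54 before) and that of SUPT16H at chr14:21384210-21384269 (minus strand, 237 before).
GTF2B: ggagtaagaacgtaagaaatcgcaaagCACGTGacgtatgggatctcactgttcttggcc
CDK7: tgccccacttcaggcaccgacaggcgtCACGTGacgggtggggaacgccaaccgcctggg
CCNT1: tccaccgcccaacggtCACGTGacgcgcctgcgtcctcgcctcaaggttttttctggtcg
AFF4: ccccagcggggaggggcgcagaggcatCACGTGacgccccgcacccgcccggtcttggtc
SUPT16H: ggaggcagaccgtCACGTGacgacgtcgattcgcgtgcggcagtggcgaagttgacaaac
In each of the 5 stretches the E-box is followed by acg. This was looked for after the stretches had been read, and the same 9 letters, CACGTGACG, stood in 205 of the 2396 genes with an E-box (8.56%).

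The TATA box, the sequence that TBP of TFIID binds, was searched in the same windows as TATAAA on both strands. It occurred in 2 members (5.56%), against 3819 genes (14.0%). Both matches, in capitals, lie 29 bases before the start, that of HEXIM1 at chr17:45148415-45148474 (plus strand) and that of GTF2B at chr1:88891568-88891627 (minus strand).
HEXIM1: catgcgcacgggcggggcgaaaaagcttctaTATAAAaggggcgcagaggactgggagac
GTF2B: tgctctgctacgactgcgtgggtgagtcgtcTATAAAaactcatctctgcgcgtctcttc
These matches are letters in a window and were not tested as binding sites.

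The deposited values are probe set intensities, and each difference is a log2 value on 1 of 2 scales. The per-cell scale has a curve through the ERCC probe sets, added by cell number, subtracted from each array, so a difference stands for RNA per cell. The equal-median scale sets the median human probe set of every array to the same value, so a difference stands for a gene's place relative to other genes. A gene was called higher or lower where its limma p, after Benjamini-Hochberg adjustment over 12198 tested genes, was under 0.05, and all 43 members were tested. These p-values rest on the spread of 2 arrays per group, which the design text calls biological duplicates, and on a spread borrowed across genes. With 2 arrays against 2, the smallest p of an exact permutation test is 0.333. In bulk RNA, a change in the number of cells that use a gene and a change in its RNA per cell cannot be told apart.

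Compared with low-Myc arrays, the ERCC probe sets were dimmer by a median of 0.30 log2 at 1 hour and of 0.79 at 24 hours. On the per-cell scale the median of all tested genes was 0.97 at 24 hours (high-Myc against low-Myc), 0.30 at 1 hour (mid-Myc against low-Myc) and 0.72 from 1 to 24 hours (high-Myc against mid-Myc). On the equal-median scale these medians were 0.05, 0.09 and 0.02. Changes of the members are read beside those medians. MYC, the gene whose transgene was released, was higher by 0.96 per cell (SE 0.03, limma adjusted p = 4.16e-10) and by 0.34 on the equal-median scale at 24 hours. At 1 hour its equal-median difference of 0.09 ranged from -0.16 to 0.12 over other scalings and arrays left out, so MYC does not check the mid-Myc label. Of 6 B-cell markers, 5 had a probe set and all 5 were above the filter, with mean intensities of 460 to 11519, and their intensities summed to 18182 at 0 hours, 18637 at 1 hour and 12058 at 24 hours. Of 8 markers for T and NK cells 6 passed the filter, the brightest at 97.6, and the list summed to 437, 393 and 330.1 at these times. Of 6 for fibroblasts and epithelium 3 passed, the brightest at 50.5, with sums of 209, 192 and 256 in the same order. Of 6 for monocytes 3 passed, with sums of 1489, 1565 and 559.9, of which LYZ made up 1199, 1259 and 387. The part of these markers in the results was not tested. No detection calls were given, so dim values include background. Of 23 background probe sets 7 passed the filter, 1 of them at 694 and the others at or below 194, and 11 members were below 194 in their dimmest group.

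Per cell, the measured member genes had higher values in high-Myc cells than in low-Myc cells. All 43 were called higher and 0 lower, against 90.8% and 2.53% of all tested genes. The calls of CCNT2 and HEXIM1 were lost with 1 ERCC factor per array. The members' median was then 1.02 log2, which was not set beside that of all tested genes under the same scaling. The calls of POLR2A and AFF4 were lost with the probe set of the second highest mean. The rise was 2-fold or more in 34 of 43, against 48.4% of all tested genes, and the median over members was 1.40 log2 (2.64-fold), beside 0.97 over all tested genes. The core subunits had a median of 2.00, the general factors of 1.50, and the P-TEFb and elongation factors of 1.06. Background probe sets above the filter were also higher per cell, by 0.73 to 1.56. The brightest of them stood at 694, beside a median intensity of 509 over the members. The part of background signal in the changes of the members was not tested.

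Relative to other genes, the 3 classes had different medians at 24 hours, a difference that was not tested. Of the members 28 were called higher and 5 lower on the equal-median scale, against 37.7% and 26% of all tested genes, and 7 were higher by 2-fold or more, against 11.1%. Of the core subunits 11 of 12 were higher and 0 lower (median 0.89). Of the general factors 8 of 9 were higher and 0 lower (median 0.35). Of the P-TEFb and elongation factors 9 were higher, 5 lower and 8 not called (median 0.02), beside a median of 0.05 over all tested genes. Under 4 other scalings without the ERCC RNAs, the core median was 0.69 to 0.77 and that of the general factors 0.14 to 0.22, while that of the P-TEFb and elongation factors was -0.18 to -0.08. The calls split into 23 higher and 9 lower with no rescaling of the deposited values, against 31.1% and 35.3% of all tested genes. With quantile normalization they were 20 and 9, against 30.7% and 34.2%. With cyclic loess they were 23 and 7, against 33.2% and 30.9%, and with centring on the tested genes 21 and 11, against 28.7% and 40.4%.

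**Figure D1:**
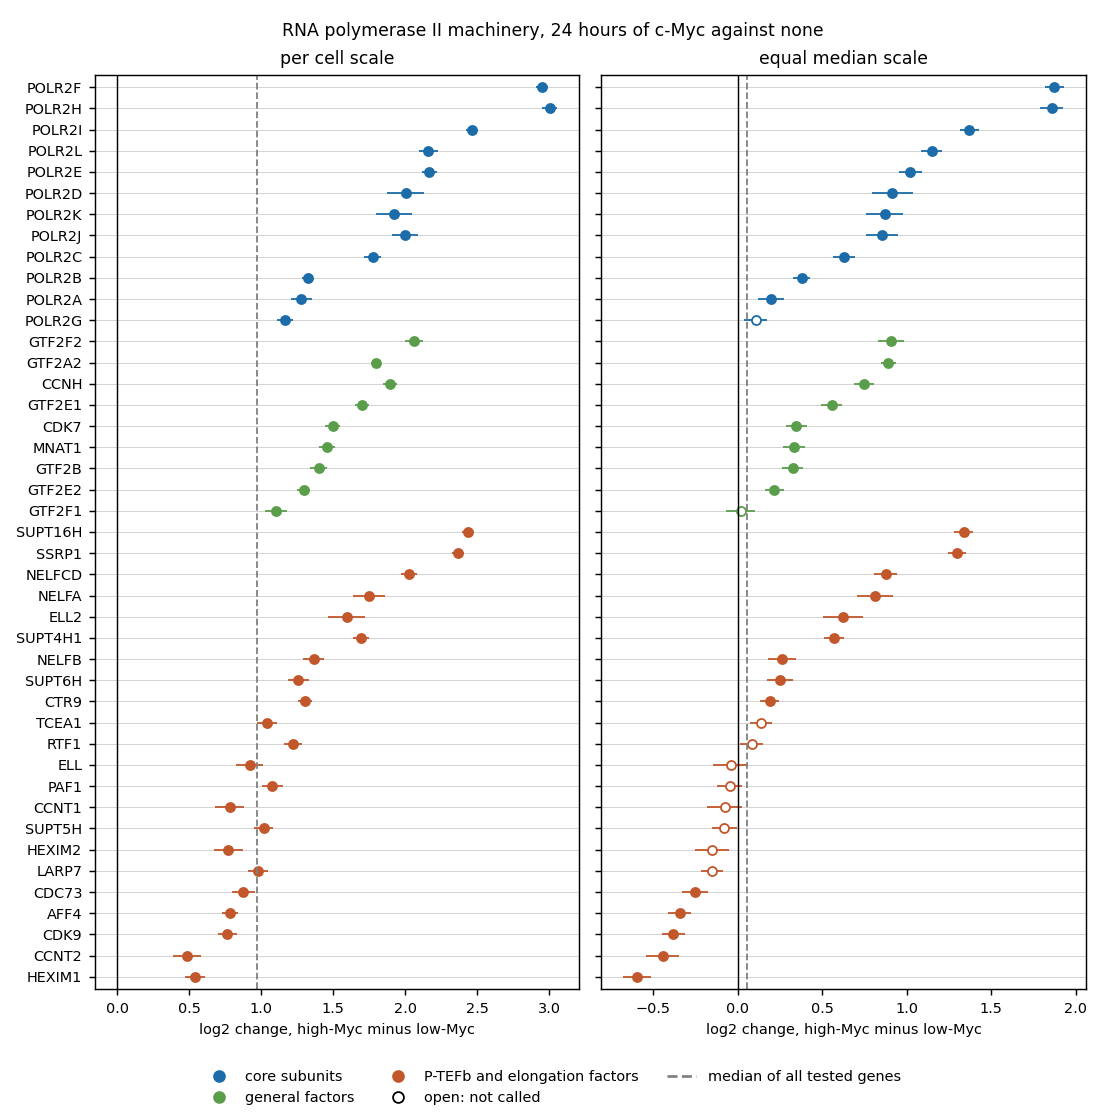
Change of each of the 43 members in high-Myc against low-Myc arrays (log2, x axis) on the per-cell and the equal-median scale, ordered by class. Error bars are SE from limma, open symbols were not called, and the dashed line is the median of all tested genes (0.97 and 0.05). All members lie above 0 per cell, and POLR2H and POLR2F lie farthest to the right, at 3.0 and 2.95.

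Among the core subunits, the small subunits POLR2F and POLR2H rose most. POLR2F (RPB6, chr22:37953663-38041915), a subunit that all 3 nuclear polymerases share, had intensities of 570.2 and 568 in low-Myc, 620.0 and 643 in mid-Myc and 1859 and 1925 in high-Myc arrays. POLR2H (RPB8, chr3:184361710-184368591), shared likewise, had 349.7 and 339.7 in low-Myc, 324 and 349.7 in mid-Myc and 1107 and 1159 in high-Myc arrays. For both genes the high-Myc arrays stood far above the other 4. The low-Myc and mid-Myc arrays of POLR2H overlapped in deposited intensity, while on either scale its mid-Myc pair lay above its low-Myc pair. In high-Myc against low-Myc arrays POLR2F was higher by 2.95 per cell and by 1.87 on the equal-median scale (SE 0.06, limma adjusted p = 5.94e-12), and its further probe set by 0.77 on the equal-median scale. In the same comparison POLR2H was higher by 3.0 per cell and by 1.86 on the equal-median scale (SE 0.07, limma adjusted p = 3.13e-11). POLR2I, which encodes the RPB9 subunit, had 597 and 564 in low-Myc, 666 and 677 in mid-Myc and 1363 and 1361 in high-Myc arrays. Its arrays were in order of time with no overlap, and it was higher by 1.37 at 24 hours on the equal-median scale (limma adjusted p = 1.01e-10).

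The smallest changes in the core were those of POLR2G, POLR2A and POLR2B. POLR2A (RPB1, chr17:7484366-7514616), which forms the catalytic centre and carries the repeated tail, had 188 and 199.9 in low-Myc, 188 and 197 in mid-Myc and 196 and 207 in high-Myc arrays. In deposited intensity its 3 groups overlap, on either scale the high-Myc pair lies above the low-Myc pair, and it came out higher by 1.28 per cell and by 0.19 on the equal-median scale (SE 0.08, limma adjusted p = 0.0399). The equal-median direction was not settled, since its other 2 probe sets gave -0.70 and -0.02, the mean of its probe sets -0.18, and the call held in 6 of 18 alternatives. Leaving out low-Myc replicate 1 (0.16), low-Myc replicate 2 (0.23) or high-Myc replicate 2 (0.14) also ended it. Per cell the second probe set gave 0.13, which was not called, and the third 0.67. POLR2B (RPB2), the other subunit of the catalytic centre, had 1855 and 1748 in low-Myc, 1803 and 1773 in mid-Myc and 2106 and 2139 in high-Myc arrays, with the high-Myc pair above the rest. It was higher by 0.38 on the equal-median scale (limma adjusted p = 9.39e-06), a call lost with quantile normalization. POLR2G, which encodes RPB7 of the subunit pair that forms the stalk, had 1034 and 905 in low-Myc, 1033 and 1019.7 in mid-Myc and 925 and 963 in high-Myc arrays. Its groups overlap in deposited intensity, and it was the 1 core subunit with no call on the equal-median scale (0.10, limma adjusted p = 0.194), though called higher without low-Myc replicate 1 (0.21).

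POLR2D (RPB4), the partner of POLR2G in the stalk, showed its difference already at 1 hour. It had 148 and 142 in low-Myc, 233 and 246 in mid-Myc and 295 and 207 in high-Myc arrays, so both mid-Myc arrays were far above the low-Myc pair and the high-Myc replicates lay on either side of the mid-Myc pair. It was higher on the equal-median scale by 0.88 in mid-Myc against low-Myc arrays (limma adjusted p = 0.00018) and by 0.91 in high-Myc against low-Myc arrays (limma adjusted p = 1.34e-05), with 0.04 between high-Myc and mid-Myc arrays (limma adjusted p = 0.817). Its dimmer second probe set gave 0.30 at 1 hour, not called, and 0.54 at 24 hours. POLR2J (RPB11) had 463 and 359 in low-Myc, 518 and 486 in mid-Myc and 682 and 654 in high-Myc arrays, the high-Myc pair being the brightest, and was higher by 0.45 at 1 hour and 0.85 at 24 hours on the equal-median scale. POLR2K (RPB12), shared by the 3 polymerases, had 811 and 892 in low-Myc, 798 and 875 in mid-Myc and 1664 and 1192 in high-Myc arrays. Its low-Myc and mid-Myc arrays overlapped in deposited intensity and on the equal-median scale, though not per cell. Its high-Myc replicates stood apart from each other, and it was higher by 0.87 at 24 hours on the equal-median scale (limma adjusted p = 9.13e-06).

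The remaining subunits were higher at 24 hours by 1.15 (POLR2L, shared), 1.02 (POLR2E, shared) and 0.63 (POLR2C) on the equal-median scale. Grouped after these values had been seen, the 5 subunits that polymerases I and III also use (POLR2E, POLR2F, POLR2H, POLR2K and POLR2L) were all called higher, against 37.7% of all tested genes, with a median of 1.15 and a range of 0.87 to 1.87. Of the 7 subunits found in polymerase II alone 6 were called higher, with a median of 0.63 and a range of 0.10 to 1.37. The difference between these groupings was not tested.

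**Figure D2:**
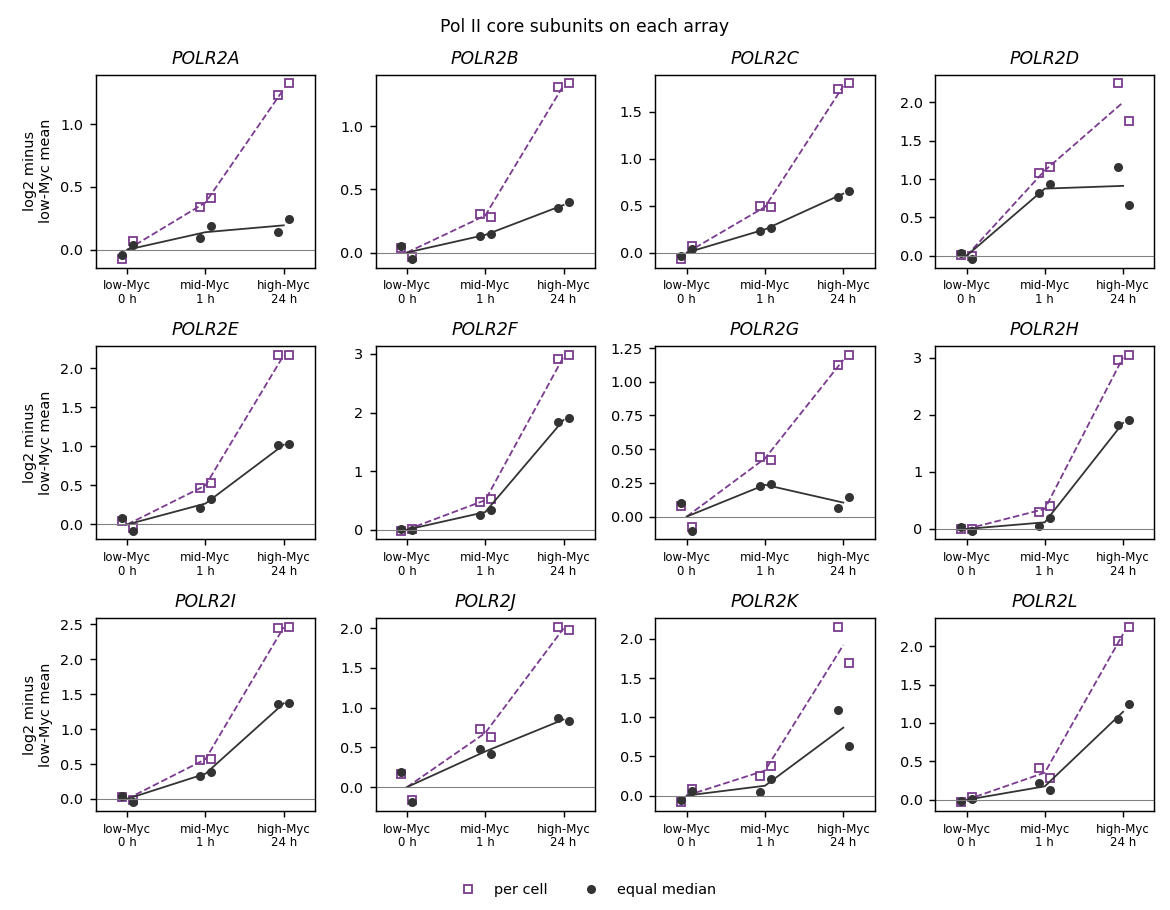
Value of each core subunit in every array, as log2 minus the mean of the low-Myc arrays (y axis), with the groups in order of time (0, 1 and 24 hours, x axis). Open squares are the per-cell scale, dots the equal-median scale, and lines join group means. POLR2F and POLR2H stand highest at 24 hours, at 2.95 and 3.0 per cell, and POLR2D reaches 0.88 at 1 hour on the equal-median scale.

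The general factors had a lower median than the core and differed among themselves. GTF2F2, the small subunit of TFIIF, which escorts the polymerase to the promoter, had 389.8 and 334 in low-Myc, 350.2 and 350.5 in mid-Myc and 620.5 and 609 in high-Myc arrays. GTF2A2, the small subunit of TFIIA, had 1988 and 1898 in low-Myc, 2129 and 2128 in mid-Myc and 3273 and 3264 in high-Myc arrays. In both genes the high-Myc pair lay far above the others, and on the equal-median scale they were higher by 0.91 (limma adjusted p = 1.22e-07) and 0.89 (limma adjusted p = 6.12e-10) in high-Myc against low-Myc arrays. GTF2F1, the large subunit of the same TFIIF, had 216 and 187 in low-Myc, 219 and 225 in mid-Myc and 195 and 175 in high-Myc arrays and no call at 24 hours (0.02, limma adjusted p = 0.892). Its high-Myc and low-Myc arrays overlapped in deposited intensity and on the equal-median scale. The difference between the 2 subunits of TFIIF was not tested. Per cell GTF2F1 was called higher, at 1.10.

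GTF2E1 and GTF2E2 encode the subunits of TFIIE, which brings TFIIH to the promoter. GTF2E1 had 378 and 373 in low-Myc, 270.5 and 269 in mid-Myc and 500.3 and 501 in high-Myc arrays, so its groups were fully separate, with mid-Myc lowest and high-Myc highest. It was lower by 0.33 on the equal-median scale at 1 hour (limma adjusted p = 0.00161) and higher by 0.56 at 24 hours (limma adjusted p = 2.39e-06), and both calls held in all 18 alternatives. Per cell its 1-hour value was -0.09 and not called (limma adjusted p = 0.158). GTF2E2 had 886 and 831 in low-Myc, 849 and 855 in mid-Myc and 894 and 915 in high-Myc arrays, with the high-Myc pair only just above the rest. It was higher by 0.22 at 24 hours on the equal-median scale (limma adjusted p = 0.00454), a call lost under all 4 other scalings. GTF2B (TFIIB), which bridges TBP and the polymerase, had 780.1 and 854 in low-Myc, 892 and 961 in mid-Myc and 930.2 and 924 in high-Myc arrays, with all mid-Myc and high-Myc arrays above the low-Myc pair. It was higher by 0.33 at 1 hour and 0.32 at 24 hours on the equal-median scale. Both calls were lost with quantile normalization, the first also with cyclic loess and the second with centring on the tested genes.

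The kinase module of TFIIH is made of CDK7, its cyclin CCNH and the assembly factor MNAT1. On the equal-median scale all 3 genes were called higher at 24 hours, against 37.7% of all tested genes. CCNH had 453 and 457 in low-Myc, 489 and 506 in mid-Myc and 695 and 691 in high-Myc arrays, with its arrays in order of time and no overlap, and rose by 0.75 on the equal-median scale (limma adjusted p = 6.89e-08). CDK7 rose by 0.35 (limma adjusted p = 0.000245). MNAT1 had 299 and 292 in low-Myc, 246 and 229 in mid-Myc and 336 and 339 in high-Myc arrays, with both mid-Myc arrays the lowest of the 6, and rose by 0.33 at 24 hours, a call lost with quantile normalization and with centring on the tested genes. Its 1-hour value of -0.17 was not called (limma adjusted p = 0.0784).

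P-TEFb and its inhibitor lay at the low end of the members. In all 6 genes of P-TEFb and the 7SK ribonucleoprotein, put together after their values had been seen, the per-cell value was called higher at 24 hours. Of all tested genes 90.8% were called so, and the median of the 6 was 0.77 beside 0.97 over all tested genes. They rose per cell by 0.48 to 0.98, and background probe sets above the filter by 0.73 to 1.56. Relative to other genes, on the equal-median scale, 0 of the 6 were higher and 3 lower, against 37.7% and 26% of all tested genes, with a median of -0.27. CDK9 (chr9:127786034-127790792), the kinase, had 566 and 607 in low-Myc, 591 and 633 in mid-Myc and 394 and 423 in high-Myc arrays. In deposited intensity its high-Myc pair was the dimmest, and its low-Myc and mid-Myc arrays overlapped. On either scale its mid-Myc pair lay above its low-Myc pair. CDK9 was higher by 0.76 per cell (limma adjusted p = 1.71e-06) and lower by 0.38 on the equal-median scale (SE 0.07, limma adjusted p = 0.000246). The equal-median call held in all 18 alternatives, at -0.60 to -0.31, and the further probe sets gave -0.49 and -0.07.

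The cyclin partners were dim. CCNT2 (chr2:134918822-134959342) had 100.2 and 104 in low-Myc, 97.0 and 104 in mid-Myc and 71.9 and 64.3 in high-Myc arrays, the high-Myc pair being lowest. It was lower by 0.45 on the equal-median scale (limma adjusted p = 0.00109, -0.65 to -0.38 in 18 alternatives) and higher by 0.48 per cell. That per-cell rise was the smallest among the members and was lost with 1 ERCC factor per array. CCNT1 (chr12:48688458-48716707), the main partner of CDK9, had 67.0 and 70.0 in low-Myc, 82.9 and 82.8 in mid-Myc and 61.4 and 56.5 in high-Myc arrays. Its mid-Myc pair was highest and its high-Myc pair lowest, with no overlap. It was not called for high-Myc against low-Myc on the equal-median scale (-0.08, limma adjusted p = 0.529) and was higher by 0.78 per cell. CCNT1 and CCNT2 lay below 194, the level of the second brightest background probe set.

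HEXIM1 (chr17:45148475-45152099), which inhibits P-TEFb bound to the 7SK RNA, had 402 and 357 in low-Myc, 333 and 345 in mid-Myc and 217 and 239 in high-Myc arrays. Its high-Myc pair lay well below the other 4 arrays. It fell by 0.60 on the equal-median scale (SE 0.08, limma adjusted p = 1.7e-05, -0.80 to -0.50 in 18 alternatives), and its 4 further probe sets gave -0.75 to -0.25. Per cell it was higher by 0.54 (limma adjusted p = 3.86e-05), a call lost with 1 ERCC factor per array. HEXIM2 (chr17:45160174-45170040), its paralogue, was dim, with 98.7 and 99.2 in low-Myc, 87.2 and 78.2 in mid-Myc and 76.7 and 85.2 in high-Myc arrays. Both low-Myc arrays were above all others, and the equal-median value at 24 hours was -0.15 (limma adjusted p = 0.2). LARP7 (chr4:112637143-112657586) had 622 and 661 in low-Myc, 759.9 and 666 in mid-Myc and 534 and 511 in high-Myc arrays, the high-Myc pair being lowest. Its equal-median value of -0.16 just missed the threshold (limma adjusted p = 0.052), was called lower in 9 of 18 alternatives, among them those without mid-Myc replicate 1 or 2, and came with a per-cell rise of 0.98.

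**Figure D3:**
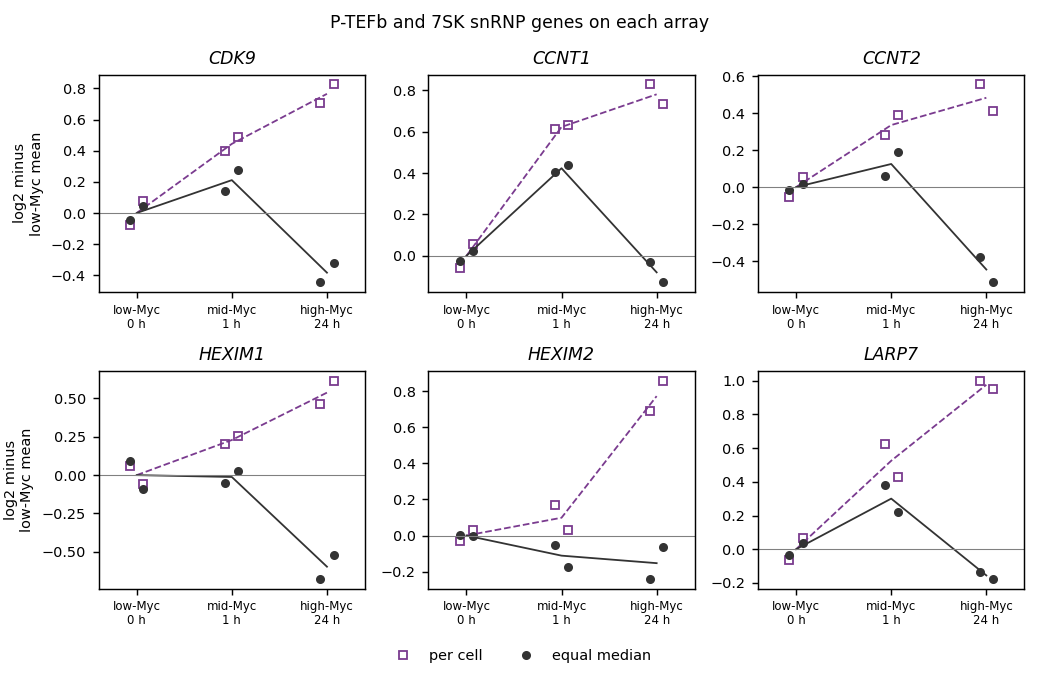
Value of the P-TEFb genes (CDK9, CCNT1 and CCNT2) and 7SK ribonucleoprotein genes (HEXIM1, HEXIM2 and LARP7) in every array. Values are log2 minus the mean of the low-Myc arrays (y axis), with the groups in order of time (0, 1 and 24 hours, x axis). Open squares are the per-cell scale, dots the equal-median scale, and lines join group means. At 24 hours HEXIM1 ends at -0.60 and CDK9 at -0.38 on the equal-median scale, while per cell they end at 0.54 and 0.76.

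All 3 NELF genes, which belong to the complex that holds the paused polymerase, were called higher on the equal-median scale at 24 hours, against 37.7% of all tested genes. NELFCD had 383 and 384 in low-Myc, 365 and 390.0 in mid-Myc and 619.9 and 657 in high-Myc arrays, with the high-Myc pair far above the other arrays, and rose by 0.87 (limma adjusted p = 5.26e-08). NELFA, which has 1 probe set, rose by 0.81 (limma adjusted p = 1.22e-05). It was dim, with all 6 arrays below 194, the level of the second brightest background probe set. NELFB was higher by 0.26, a call lost under all 4 other scalings and without low-Myc replicate 2 (0.15) or high-Myc replicate 1 (0.22). Of the DSIF pair, the small subunit SUPT4H1 rose by 0.57 (limma adjusted p = 1.26e-06), with 0.10 in its further probe set, and the large subunit SUPT5H was at -0.08 (limma adjusted p = 0.365). No test compared NELF or DSIF with P-TEFb.

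FACT, the histone chaperone that helps the polymerase through nucleosomes, showed the largest rise among the elongation factors. SUPT16H (chr14:21351476-21384019) had 598 and 569 in low-Myc, 570.3 and 572 in mid-Myc and 1359 and 1315 in high-Myc arrays. SSRP1 (chr11:57325988-57335892), its partner, had 715 and 722 in low-Myc, 720.3 and 700.5 in mid-Myc and 1605 and 1602 in high-Myc arrays. In both genes the high-Myc pair lay far above the other 4 arrays. Low-Myc and mid-Myc arrays overlapped in deposited intensity, while on either scale the mid-Myc pair lay above the low-Myc pair. Centred on equal medians, SUPT16H rose by 1.34 (limma adjusted p = 1.16e-10) and SSRP1 by 1.30 (limma adjusted p = 6.27e-11), and per cell by 2.44 and 2.36.

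The super elongation complex and the PAF1 complex held members of both directions. AFF4, the scaffold that joins P-TEFb to the ELL proteins, had 698 and 609.8 in low-Myc, 801 and 820.4 in mid-Myc and 466 and 466 in high-Myc arrays, with the mid-Myc pair highest and the high-Myc pair lowest. It was lower by 0.35 at 24 hours on the equal-median scale (limma adjusted p = 0.000617), although 1 dim probe set gave 0.13. Per cell it was higher by 0.78, but by 0.15 and with no call in its second probe set. ELL2 had 107 and 106 in low-Myc, 96.6 and 78.9 in mid-Myc and 132 and 166 in high-Myc arrays and was higher by 0.62 (limma adjusted p = 0.000383), but its other probe set gave -0.14. ELL was not called (-0.04). In the PAF1 complex, CDC73 was lower by 0.25 (limma adjusted p = 0.0115), a call lost without low-Myc replicate 2 (-0.23) or high-Myc replicate 1 (-0.16), and its second probe set gave 0.09. CTR9 was higher by 0.19, a call lost without high-Myc replicate 1 (0.16) and under all 4 other scalings. PAF1 and RTF1 were not called, at -0.05 and 0.08. Of the other elongation factors, SUPT6H, a histone chaperone that travels with the polymerase, was higher by 0.25, a call lost under all 4 other scalings and without low-Myc replicate 2 (0.24) or high-Myc replicate 2 (0.23). TCEA1 (TFIIS), which restarts stalled polymerase, was at 0.14 with no call, and was called higher without low-Myc replicate 1 (0.24) or high-Myc replicate 2 (0.19).

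**Figure D4:**
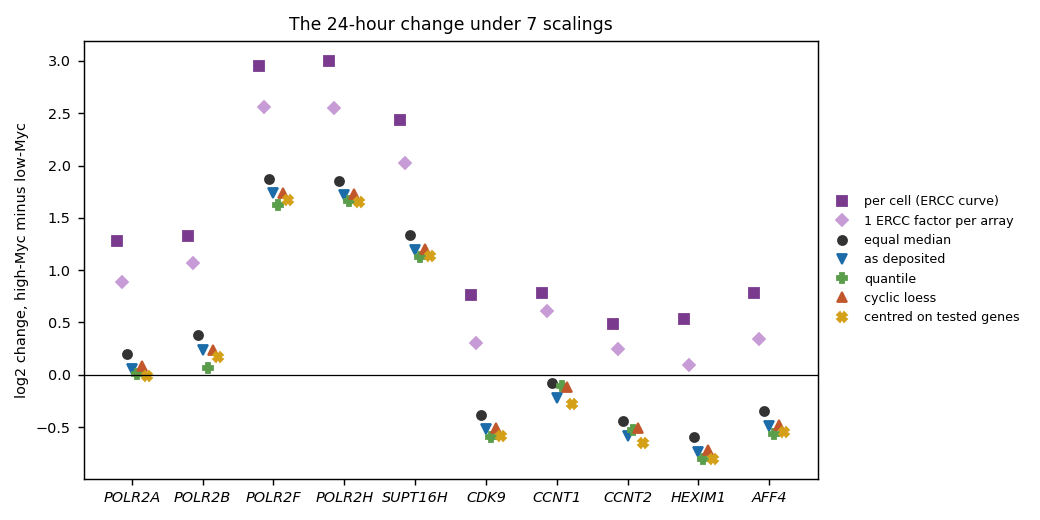
For 10 genes, the high-Myc minus low-Myc change (log2) under 7 scalings, those with the ERCC RNAs and those without them. CDK9 and HEXIM1 lie above 0 on each ERCC-based scaling and below 0 on each of the others, while POLR2F and POLR2H lie above 0 on all 7.

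At 1 hour the median change per cell over the members was smaller than at 24 hours. Per cell 38 of 43 members were called higher in mid-Myc against low-Myc arrays and 0 lower, against 62.4% and 0.697% of all tested genes, with a median of 0.40 beside 0.30 over all tested genes. All 12 core subunits, 7 of 9 general factors and 19 of 22 P-TEFb and elongation factors were called. On the equal-median scale 22 were higher and 1 lower, against 25.7% and 3.39% of all tested genes, with a median of 0.19 beside 0.09. The 22 comprised 8 core subunits (class median 0.24), 4 general factors (0.14) and 10 P-TEFb and elongation factors (0.18), and the 1 lower was GTF2E1. These counts depended on the centring. The number of members called higher was 6 with no rescaling (9.27% of all tested genes were called higher), 4 with quantile normalization (7.83%), 4 with cyclic loess (8.63%) and 9 with centring on the tested genes (12.5%). With 3 members lower in each, the lower shares of all tested genes were 12.2%, 9.8%, 8.48% and 8.83%, and the median of all tested genes was -0.06, -0.02, -0.01 and -0.02. Calls became fewer, among members and over all tested genes alike, without low-Myc replicate 2 or either mid-Myc array. Without low-Myc replicate 2 the medians of core subunits, general factors, and P-TEFb and elongation factors were 0.19, 0.11 and 0.14. Without mid-Myc replicate 2 they were 0.22, 0.12 and 0.16, and without mid-Myc replicate 1 they were 0.25, 0.17 and 0.21. In these 3 fits the median of all tested genes was 0.08, 0.08 and 0.11. The median of the general factors ran from -0.05 to 0.02 under those 4 scalings, so their 1-hour direction as a class was not settled.

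Several genes of P-TEFb and its partners were called higher at 1 hour. AFF4 rose by 0.46 on the equal-median scale (limma adjusted p = 0.000337), called in 17 of 18 alternatives. CCNT1 rose by 0.42 (SE 0.10, limma adjusted p = 0.00745), called in 14 of 17 alternatives and lost without mid-Myc replicate 2, at 0.41. LARP7 was higher by 0.30 (limma adjusted p = 0.00384), with the call lost without mid-Myc replicate 1 (0.22) and under all 4 other scalings. CDK9 was higher by 0.21 (limma adjusted p = 0.0365), a call that held in 7 of 18 alternatives and was lost without low-Myc replicate 1 (0.17), low-Myc replicate 2 (0.25) or mid-Myc replicate 2 (0.14). CCNT2, HEXIM1, HEXIM2 and ELL2 were not called, at 0.13, -0.01, -0.11 and -0.14.

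Between 1 and 24 hours the lower calls fell mostly among the P-TEFb and elongation factors. Per cell 40 of 43 were higher in high-Myc than in mid-Myc arrays and 0 lower, against 81.7% and 6.57% of all tested genes, with a median of 1.03 beside 0.72. The 3 not called were CCNT1 (0.16, limma adjusted p = 0.159), CCNT2 (0.15) and AFF4 (0.10). On the equal-median scale 22 were higher and 10 lower, against 33.3% and 30.9% of all tested genes. The core subunits had 9 higher and 0 lower, with a median of 0.57, and the general factors 6 higher and 1 lower, with a median of 0.47. The P-TEFb and elongation factors had 7 higher and 9 lower, with a median of -0.07. Under the 4 other scalings these medians were 0.48 to 0.60, 0.38 to 0.49 and -0.16 to -0.06.

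All 3 genes of P-TEFb were called lower over this interval on the equal-median scale, against 30.9% of all tested genes. CDK9 fell by 0.59 (limma adjusted p = 3.85e-06), CCNT1 by 0.50 (limma adjusted p = 0.000652) and CCNT2 by 0.57 (limma adjusted p = 0.000137). HEXIM1 fell by 0.58 (limma adjusted p = 2.09e-05), LARP7 by 0.46 (limma adjusted p = 2.78e-05) and AFF4 by 0.81 (limma adjusted p = 1.77e-07). These falls were called in every alternative run for the gene, of which there were 17 for CCNT1 and 18 for each of the others. Per cell CDK9 was higher by 0.32 and HEXIM1 by 0.31, values that became -0.03 and -0.02 with 1 ERCC factor per array. GTF2E1 rose by 0.88 (limma adjusted p = 1.99e-08).

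The 2 intervals share the mid-Myc arrays, so their calls are given side by side and not compared, and the 1-hour calls depended on the centring. Of the members 8 were higher on the equal-median scale at 1 hour and then lower from 1 to 24 hours: GTF2F1, CDK9, CCNT1, LARP7, SUPT5H, AFF4, PAF1 and CDC73. The same pair of calls was made for 12.2% of all tested genes. Higher in both intervals were 9 members: POLR2B, POLR2C, POLR2E, POLR2F, POLR2I, POLR2J, GTF2A2, CCNH and SUPT4H1, against 9.19% of all tested genes. A further 12 were called higher over the second interval alone, among them POLR2H, GTF2F2, NELFCD, SUPT16H and SSRP1, against 22.4%. Neither interval gave a call for 6 members, which include POLR2A, against 30.4%.

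**Figure D5:**
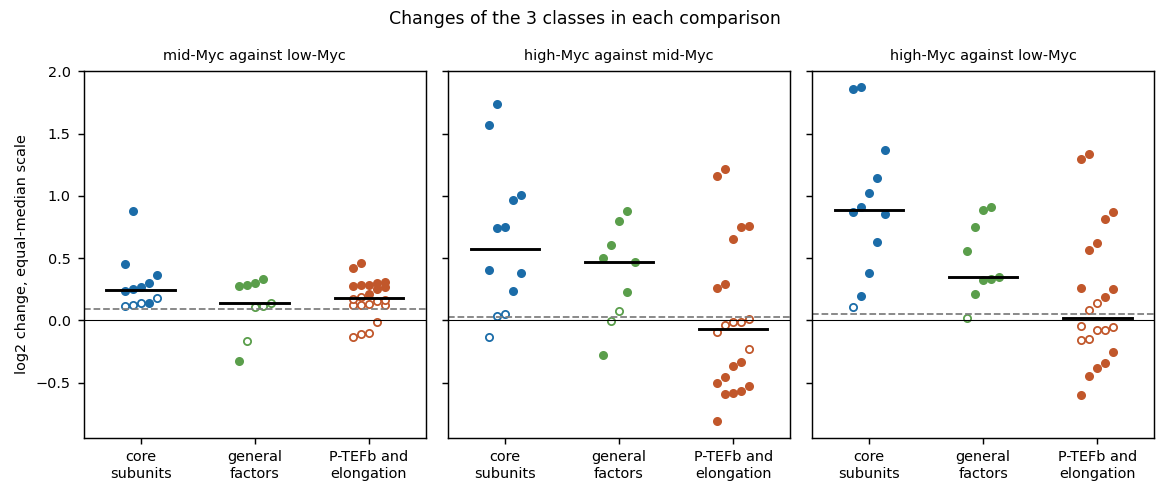
Equal-median change (log2, y axis) of every member by class in the 3 comparisons. Each point is a gene, open points were not called, bars are class medians and the dashed line is the median of all tested genes. The core subunits have medians of 0.89, 0.24 and 0.57 at 24 hours, at 1 hour and from 1 to 24 hours, and the P-TEFb and elongation factors 0.02, 0.18 and -0.07.

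The genes that carry an E-box in the promoter window changed in both directions, SUPT16H up and AFF4 down among them. At 24 hours on the equal-median scale SUPT16H was at 1.34, CDK7 at 0.35, GTF2B at 0.32, CCNT1 at -0.08 (not called) and AFF4 at -0.35. At 1 hour AFF4 was at 0.46, CCNT1 at 0.42, GTF2B at 0.33, and SUPT16H and CDK7 at 0.12 and 0.12, of which the last pair were not called. POLR2F and POLR2H, the members with the largest rise, had no CACGTG in their windows, which says only that these letters are not there.

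Other probe sets of the same genes mostly had the same sign. Further probe sets passed the filter in 26 members. No sign differed among a gene's probe sets in 26 of these at 24 hours, 23 at 1 hour and 24 from 1 to 24 hours per cell, and in 18, 19 and 18 on the equal-median scale. Per cell most tested genes were positive (11656 of 12198 at 24 hours), so like signs on that scale say little about the agreement of probe sets. At 24 hours on the equal-median scale the genes whose probe sets differed in sign were POLR2A, POLR2C, GTF2F1, LARP7, ELL2, AFF4, RTF1 and CDC73.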

How the data were processed

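RNA of 6 P493-6 samples was measured on Affymetrix arrays. The deposited table holds 1 linear intensity per probe set and array, which the authors made with MAS5, as the submitters' processing notes list it. Neither version nor scaling target is given in the sources used here. Of 49495 probe sets, 49293 were human and 100 ERCC, and 45278 human ones carried 1 symbol, 1333 several and 2682 none listed. Symbols were updated through Entrez IDs, which matched for 45208.

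Log2 values were put on 2 scales. Per cell, a robust loess fit (span 0.7, degree 1) of each array's 100 ERCC probe sets on their mean over all arrays was subtracted from it. At the members' levels the high-Myc minus low-Myc difference of this fit was -1.29 to -1.00. For the equal median, the median human probe set of every array was set alike. Each gene was read by its probe set of highest mean and tested if that mean passed the 40th percentile (33.8), which left 12198 genes. The members averaged 69.4 to 2469 in intensity. Differences were tested in 1 limma fit (version 3.58.1, R 4.3.3) of all 6 arrays that models a variance trend. Its p-values are two-sided with a threshold of 0.05 after Benjamini-Hochberg adjustment, and it gives the SE. Replicates correlated at r = 0.996 over genes in each group. The steps were tested on simulated data.

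The members and gene lists were chosen with earlier results of these data known. Named with values in every array were POLR2A, CDK9, CCNT1, CCNT2, HEXIM1, HEXIM2, LARP7 and, on the equal-median scale, in each class 3 members from either end of the 24-hour changes and 2 from either end of the 1-hour changes. Other members are given by change and adjusted p. Alternatives changed the filter, probe set, pseudocount (16), trend, block, arrays and scaling. Sequences come from RefSeq (GRCh38.p14). No window was given for GTF2E2, ELL2, POLR2G, POLR2I, CDC73, POLR2J, POLR2K and TCEA1.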

Additional observations from a re-analysis of the deposited data

How the results depend on the processing

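Alternatives changed the filter, the probe set, the pseudocount, the variance trend, the groups in the fit, the replicate number as a block, the arrays and the scaling. Over these, single-gene values of members kept their call and direction, or stayed uncalled whatever their sign, 4098 times. A called value lost its call with the same sign 196 times and changed sign 15 times. An uncalled value gained a call with the same sign 69 times and with the opposite sign 2 times. Leaving out each array gave 25 to 29 members higher and 4 to 6 lower at 24 hours (high-Myc against low-Myc), 12 to 22 and 1 at 1 hour (mid-Myc against low-Myc), and 21 to 23 and 9 to 12 from 1 to 24 hours (high-Myc against mid-Myc) on the equal-median scale, and per cell 43, 34 to 38 and 40 higher with 0 lower. Members lower on the equal-median scale for high-Myc against low-Myc numbered 9 as deposited, 9 with quantile normalization and 11 centred on the tested genes. For mid-Myc against low-Myc, members higher numbered 14 with no variance trend, 6 as deposited, 4 with quantile normalization, 4 with cyclic loess and 9 centred on the tested genes, and members lower 2 with log2(value + 16), with the mean of probe sets and with the second probe set, and 3 under each of the 4 other scalings. With 1 ERCC factor per array, 1 general factor was called lower per cell at 1 hour, and 1 of the P-TEFb and elongation factors from 1 to 24 hours. In the latter interval CDK9 stood at -0.032 and HEXIM1 at -0.023, neither of them called (limma adjusted p = 0.68 and 0.777). With the second probe set POLR2A turned to -0.018 per cell at 1 hour and to -0.70 on the equal-median scale at 24 hours, where the mean of its probe sets gave -0.18 and centring on the tested genes -0.0095. With the second probe set CDC73 turned to 0.089 and ELL2 to -0.14 for high-Myc against low-Myc, and ELL2 to -0.28 and SUPT4H1 to -0.0018 for high-Myc against mid-Myc. POLR2B at 1 hour turned to -0.0099 as deposited, -0.098 with quantile normalization and -0.059 with cyclic loess, and CTR9 at 24 hours to -0.032 with quantile normalization and -0.015 centred on the tested genes. The cause of these changes was not tested. Samples share a replicate number only: the deviations of same-numbered arrays correlated at 0.002, -0.003 and -0.002 over genes. With the replicate number as a block, 29 members were higher and 5 lower at 24 hours, beside 28 and 5 without it. At 1 hour they were 23 and 1, beside 22 and 1, and from 1 to 24 hours 22 and 10 either way. The shares of all tested genes with the block are not given here. With a filter at the 60th percentile CCNT1 was not tested. The 2 arrays per group and the background signal of dim probe sets limit what smaller changes can show.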

Other observations

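Genes that work beside the members, taken from a fixed list of 106 that covers TFIID, the rest of TFIIA and TFIIH, Mediator, further elongation factors, polymerase assembly factors and tail phosphatases, and Integrator, were measured on the same arrays, and 97 of them were tested. In high-Myc against low-Myc arrays on the equal-median scale 62 were called higher and 12 lower by limma, beside 37.7% and 26% of all tested genes, with a median of 0.39. Integrator, the complex that cleaves nascent RNA, had 11 of 14 higher and 1 lower (median 0.53), and INTS13 (2.16, adjusted p = 5.34e-12) and INTS10 (1.69) rose most. TFIID had 9 of 15 higher and 4 lower, led by TAF5 at 1.31. Mediator had 16 of 29 higher and 1 lower (median 0.19), the lower being its kinase CDK19 (-1.17, adjusted p = 1.93e-08). The tail phosphatase CTDSP2 fell by 0.93 and EAF2, a partner of the ELL proteins, by 0.79. Over 4 other scalings and 6 arrays left out, alternatives added for this list after seeing the data, the changes of these 6 genes kept their direction. Under the 4 scalings 48 to 54 of the list were higher and 19 to 26 lower, against 28.7 to 33.2% and 30.9 to 40.4% of all tested genes.

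At 1 hour 24 of the 97 were higher and 5 lower (median 0.09), against 25.7% and 3.39% of all tested genes (median 0.09). Without mid-Myc replicate 2 or low-Myc replicate 2 fewer genes were called higher, in the list and over all tested genes alike. The median of the list was then 0.06 in either case, beside 0.08 over all tested genes. Under the 4 other scalings 7 to 9 of the list were higher and 16 to 23 lower. Under these scalings 7.83 to 12.5% of all tested genes were called higher and 8.48 to 12.2% lower. MED26, the Mediator subunit that binds elongation factors, was higher by 0.87 (adjusted p = 8.42e-07), and MEPCE, which caps the 7SK RNA, by 0.68 (adjusted p = 1.68e-05). From 1 to 24 hours MEPCE was at -0.41 (adjusted p = 0.000116), beside LARP7 at -0.46. LEO1, a subunit of the PAF1 complex, was lower by 0.43 at 1 hour and higher by 1.24 from 1 to 24 hours, and the assembly factor RPAP2 lower by 0.45 and then higher by 1.27. GTF2H3, a TFIIH subunit, fell by 0.70 and EAF1 rose by 0.47 at 1 hour. From 1 to 24 hours INTS13 (2.18), INTS10 (1.56) and ZC3H8 (1.30) rose most, and CDK19 (-1.23), CTDSP2 (-1.08) and TAF10 (-0.84) fell most, with 56 higher and 20 lower in all, against 33.3% and 30.9% of all tested genes. Each of these single-gene calls held under the 4 other scalings and with each array left out.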
